A study of Rattus norvegicus with 71 samples.

Results

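The contactins and the contactin-associated proteins were examined in brain RNA from rat pups 2 days after birth. The family was chosen by gene symbol, and 9 symbols were listed. Of these, 8 had a row among the 17494 genes of the count table (Cntn1, Cntn2, Cntn3, Cntn4, Cntn5, Cntn6, Cntnap1 and Cntnap4), and Cntnap2 was not analysed here. The choice used no measured value by itself, but the family was picked with earlier results of these data known, so the tests of its members are given as descriptions. The study asked whether maternal antibodies against proteins of the fetal brain, called MARA autoantibodies (MARA-ABs, for maternal autoantibody-related autism), change gene expression in the offspring. Sprague-Dawley dams were immunised before pregnancy with synthetic peptides of the antigens in Freund's adjuvant, or received adjuvant and saline as controls, and wild-type pups of either sex were collected at postnatal day (PND) 2. From each pup RNA was taken from a thin coronal slice holding hippocampus, cortical and subcortical tissue. The 71 animals came from 27 litters and comprised 24 controls from 7 litters and 47 exposed animals from 20 litters.

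The exposed animals had met 1 of 4 autoantibody patterns in the womb, each named after its antigens: CRMP1+CRMP2 (8 animals, 4 litters), LDHA/B+CRMP1+STIP1 (25 animals, 9 litters), CRMP1+GDA (6 animals, 3 litters) and STIP1+NSE (8 animals, 4 litters). The antigens are the collapsin response mediator proteins CRMP1 and CRMP2, the lactate dehydrogenases A and B, the stress-induced phosphoprotein STIP1, the guanine deaminase GDA and the neuron-specific enolase NSE. The samples were processed in 2 experimental batches. Batch 1 held 12 controls from 3 litters and 16 LDHA/B+CRMP1+STIP1 animals from 4 litters. Batch 2 held 12 controls from 4 litters, 9 LDHA/B+CRMP1+STIP1 animals from 5 litters and all animals of the other patterns. Littermates share a dam, so that p-values computed over animals measure the spread between pups and are too small where litters differ. Each library held between 24880182 and 36234952 counts. All 8 members passed the filter on low counts, as did 12477 genes of the table.

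Contactins are adhesion molecules of the immunoglobulin superfamily that are tethered to the surface of neurons by a lipid anchor, and they act in axon guidance, in the formation of neural circuits and at the contact between axon and glia. Contactin-associated proteins are transmembrane relatives of the neurexins that bind contactins in the same membrane. Cntn1 and Cntnap1 together form the axonal side of the junction that flanks the node of Ranvier, while Cntn2 sits next to it with potassium channels in the mature axon and, before myelin forms, marks growing corticofugal axons. Cntn3, Cntn4, Cntn5 and Cntn6 bind the receptor phosphatase Ptprg, and Cntn4 also binds the amyloid precursor protein App. Cntnap4 acts at the presynaptic side of inhibitory and dopaminergic neurons. Several of these genes have been linked to autism.

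The members lay on 6 chromosomes of the rat genome build rn7, and their counts were taken over their exons. Cntn3 (chr4:134842266-135125613, minus strand), Cntn6 (chr4:137355367-137751119, plus strand) and Cntn4 (chr4:138624694-139621090, plus strand) were neighbours. They were the only 3 genes of the table in the 4.78 Mb from the start of Cntn3 to the end of Cntn4. Cntn1 was at chr7:123372792-123558541 on the plus strand, Cntn2 at chr13:43947265-43975885 on the minus strand and Cntn5 at chr8:6738239-7450249 on the minus strand. Cntnap1 was at chr10:86111643-86125612 and Cntnap4 at chr19:40568684-40854656, both on the plus strand. The genes span between 14 kb (Cntnap1) and 996 kb (Cntn4), although each had between 22 and 25 exons with 3210 to 5363 bases in all.

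Promoter sequences from RefSeq, assembly GRCr8, were matched to 6 of the members, all contactins. The first entry listed for each gene was taken, and any further starts were not examined. The 250 bases before the start of the 3 neighbours on chromosome 4 are shown because these genes were the members with the largest share of variance between the batches. Capitals mark GGGCGG, a GC box, on either strand, which was searched together with TATAAA and CCAAT on both strands. Coordinates of this assembly are not those of rn7.
Cntn3, chr4:136681912-136682161, minus strand: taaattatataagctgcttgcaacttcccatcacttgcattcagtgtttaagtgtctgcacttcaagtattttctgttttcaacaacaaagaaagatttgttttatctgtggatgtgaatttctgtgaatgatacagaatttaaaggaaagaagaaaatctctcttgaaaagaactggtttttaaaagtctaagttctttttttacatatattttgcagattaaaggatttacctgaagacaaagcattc
Cntn6, chr4:138911317-138911566, plus strand: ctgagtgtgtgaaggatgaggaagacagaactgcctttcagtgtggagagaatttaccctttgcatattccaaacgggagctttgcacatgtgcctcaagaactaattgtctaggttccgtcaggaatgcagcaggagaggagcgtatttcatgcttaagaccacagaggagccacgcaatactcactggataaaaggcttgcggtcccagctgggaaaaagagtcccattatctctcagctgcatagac
Cntn4, chr4:140180571-140180820, plus strand: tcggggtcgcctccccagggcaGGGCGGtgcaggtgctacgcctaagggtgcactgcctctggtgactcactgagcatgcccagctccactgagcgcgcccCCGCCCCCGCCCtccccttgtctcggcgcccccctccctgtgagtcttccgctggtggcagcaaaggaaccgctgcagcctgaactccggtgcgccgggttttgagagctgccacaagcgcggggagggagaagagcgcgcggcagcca
The windows differed in base composition. That of Cntn3 had 30% G or C and 0 CpG dinucleotides, that of Cntn6 48% and 5, and that of Cntn4 70% and 20. Over all 33469 promoters the median was 51.2% with 5 CpG dinucleotides, so that Cntn3 was at percentile 1.91 of GC content and Cntn4 at percentile 92.3. Cntn4 had 3 matches to GGGCGG, of which a pair lie side by side on the opposite strand, and the other two neighbours had 0. The share of all promoters with this motif was 30.5%. None of the windows of the neighbours held TATAAA (12.9% of promoters) or CCAAT (34%).

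The levels of the members spanned a wide range. Levels are given as RPKM, which are counts scaled by exon length and library size, as mean ± SD over 71 animals. Cntn1 was the most abundant member with 122 RPKM ± 14.5 (91.2 to 158), which placed it at percentile 94.4 of the genes tested. Cntn2 followed with 32.7 RPKM ± 8.04 (23.2 to 57.1), at percentile 74.7. Both kept these places in 71 of 71 animals. Cntn5 was measured at 16.5 RPKM ± 2.84, and Cntn6 at 12.2 RPKM ± 1.86. Cntnap4 had 11.4 RPKM ± 2.04, Cntn4 9.16 RPKM ± 2.21, Cntn3 6.74 RPKM ± 1.44 and Cntnap1 5.14 RPKM ± 1.75. These 6 genes were between percentile 28.4 (Cntnap1) and percentile 55.9 (Cntn5). Neighbours in this order that did not differ beyond their SD were Cntn6 and Cntnap4, in this order in 47 of 71 animals, and Cntn3 and Cntnap1, in this order in 63 animals. Cntn5 lay above Cntn6 in 66 animals and Cntnap4 above Cntn4 in 63.

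Related genes gave a scale for these levels. Among the other contactin-associated proteins, Cntnap5a, Cntnap5b and Cntnap5c had 1.61, 2.61 and 3.03 RPKM, below every member. L1cam and Nrcam, adhesion molecules that bind contactins, had 144 and 52.9 RPKM, and Nfasc, the neurofascin gene whose glial form binds the complex of Cntn1 and Cntnap1, had 26.1 RPKM. Of the phosphatases, Ptprz1, which binds Cntn1, had 75.5 RPKM and Ptprg 20.2 RPKM. Tnr, an extracellular matrix ligand of Cntn1, was measured at 12.1 RPKM. Epb41l3, which anchors contactin-associated proteins to the cytoskeleton, had 29.4 RPKM, while the potassium channels of the mature axon, Kcna1 and Kcna2, had 2.19 and 4.08 RPKM. Chl1 was not analysed here.

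**Figure D1:**
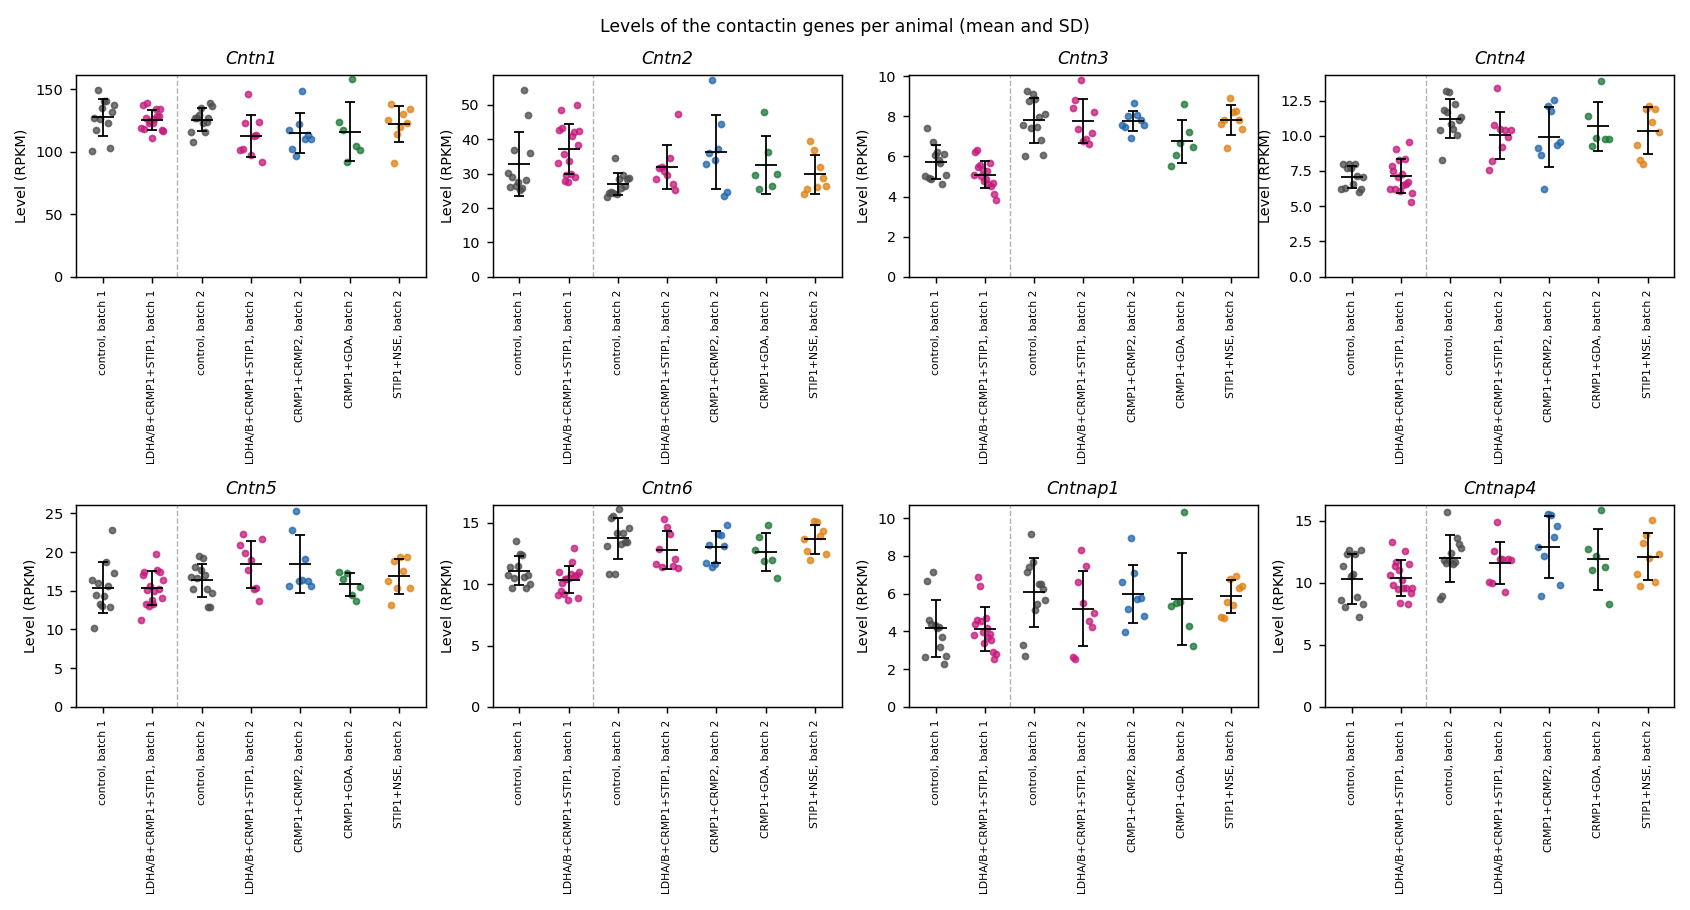
Levels of the 8 members in RPKM (vertical axes, each from 0), with a point for each of the 71 animals and the mean and SD of each group as black bars; groups left of the dashed line are of batch 1, those right of it of batch 2. Cntn3, Cntn4 and Cntn6 stand higher in batch 2 than in batch 1 in control and exposed animals alike, whereas Cntn1 and Cntn5 overlap widely.

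The slices of the 2 batches differed in their tissue markers, and this touches every comparison across batches. In bulk tissue, fewer cells of a type and less RNA per cell cannot be told apart. Of 10 thalamus markers 9 had a row, all expressed, and their summed level was 35.7 to 78.4 RPKM in the controls of batch 1 against 114 to 323 RPKM in those of batch 2. Summed cerebral cortex markers (9 of 10 with a row) were 505 to 919 RPKM against 417 to 605 RPKM, striatum markers (10 of 10) 134 to 511 RPKM against 87.0 to 176 RPKM, and choroid plexus markers (10 of 10) 4.30 to 155 RPKM against 184 to 3925 RPKM. The thalamus marker Gbx2 was at 0 in 1 library and no other thalamus or cortex marker was at 0. Further, 12 of 71 libraries held RNA of pineal gland (summed markers over 15 RPKM, 5 libraries) or of Hox genes of hindbrain and cord (over 5 RPKM, 9 libraries). These included 4 of 8 CRMP1+CRMP2 animals, 2 of 8 STIP1+NSE, 2 of 6 CRMP1+GDA, 3 of 9 LDHA/B+CRMP1+STIP1 animals of batch 2 and 1 of 12 controls of batch 1.

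The 3 neighbours on chromosome 4 were higher in the control animals of batch 2. Cntn4 ranged from 6.02 to 8.03 RPKM with a median of 7.09 in the 12 controls of batch 1, and from 8.26 to 13.2 RPKM with a median of 11.2 in the 12 of batch 2. All animals of batch 2 thus lay above all of batch 1. The ranges of these controls did not overlap, in either direction, for 1.62% of the genes tested. The log2 fold change (log2FC) of Cntn4 was 0.67 (SE 0.07, adjusted p = 8.5e-08, edgeR quasi-likelihood test with Benjamini-Hochberg adjustment, as for all adjusted p-values below unless named otherwise). Cntn3 ranged from 4.64 to 7.42 RPKM with a median of 5.74 in batch 1 and from 6.03 to 9.25 RPKM with a median of 7.79 in batch 2. Its ranges overlapped, with 4 of 12 animals of batch 2 below the highest of batch 1, and its log2FC was 0.46 (SE 0.09, adjusted p = 0.000202). Cntn6 ranged from 9.66 to 13.5 RPKM with a median of 10.8 in batch 1 and from 10.8 to 16.1 RPKM with a median of 13.8 in batch 2. Here 6 of 12 animals of batch 2 lay below the highest of batch 1, and the log2FC was 0.32 (SE 0.07, adjusted p = 0.000744).

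In all, 6 of 8 members passed a false discovery rate (FDR) of 0.1 between the controls of the batches, where 41.5% of the genes tested did. Of the members 5 were higher in batch 2, against 21.3% of all genes, and 1 was lower, against 20.2%. The further members that rose were Cntnap1 (log2FC 0.56, SE 0.20, adjusted p = 0.0323) and Cntnap4 (log2FC 0.23, SE 0.10, adjusted p = 0.0904). Cntn2 was the member that was lower in batch 2, with 25.1 to 54.3 RPKM and a median of 28.5 in batch 1 and 23.2 to 34.4 RPKM and a median of 26.1 in batch 2 (log2FC -0.28, SE 0.12, adjusted p = 0.0704). Cntn1 (log2FC -0.01, 95% interval from -0.13 to 0.10) and Cntn5 (log2FC 0.10, from -0.08 to 0.27) did not pass. The median log2FC of the members was 0.27 and that of all genes 0.00173.

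Litter was also a random effect in limma, in a fit that kept animals as units and shared a litter correlation between all genes. There 3 members still passed: Cntn4 (adjusted p = 5e-05), Cntn3 (0.0142) and Cntn6 (0.0232). The same 3 passed with the counts summed per litter, which leaves the comparison to 3 and 4 litters. In that fit Cntn6 had an adjusted p of 0.0892. The thalamus marker score, which is the mean log2 CPM (library-scaled counts) of the marker list, did not overlap between these controls (2.47 to 3.88 against 4.54 to 5.69), so that batch and thalamus score cannot be told apart here. When the score was added to the fit, 0 of 8 members passed and the estimates of Cntn2 (0.62), Cntn3 (-0.37), Cntn4 (-0.03), Cntn6 (-0.33), Cntnap1 (-1.41) and Cntnap4 (-0.36) took the opposite sign. With the cortex marker score added instead, Cntn4 kept a log2FC of 0.53 (adjusted p = 0.00628), Cntn5 passed with 0.57 (adjusted p = 0.00091), and Cntn2 turned from lower to higher in batch 2, with 0.41 (adjusted p = 0.037). Cntn3 and Cntn6 did not pass with the cortex score. This score overlapped only in part between these controls (6.90 to 7.75 in batch 1, 6.62 to 7.16 in batch 2). Batch and cortex score can thus be told apart only in part in that fit. The share of all genes given above is of the fit with animals as replicates. Shares under the litter and score fits are not reported here, so their counts of members stand without that background.

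**Figure D2:**
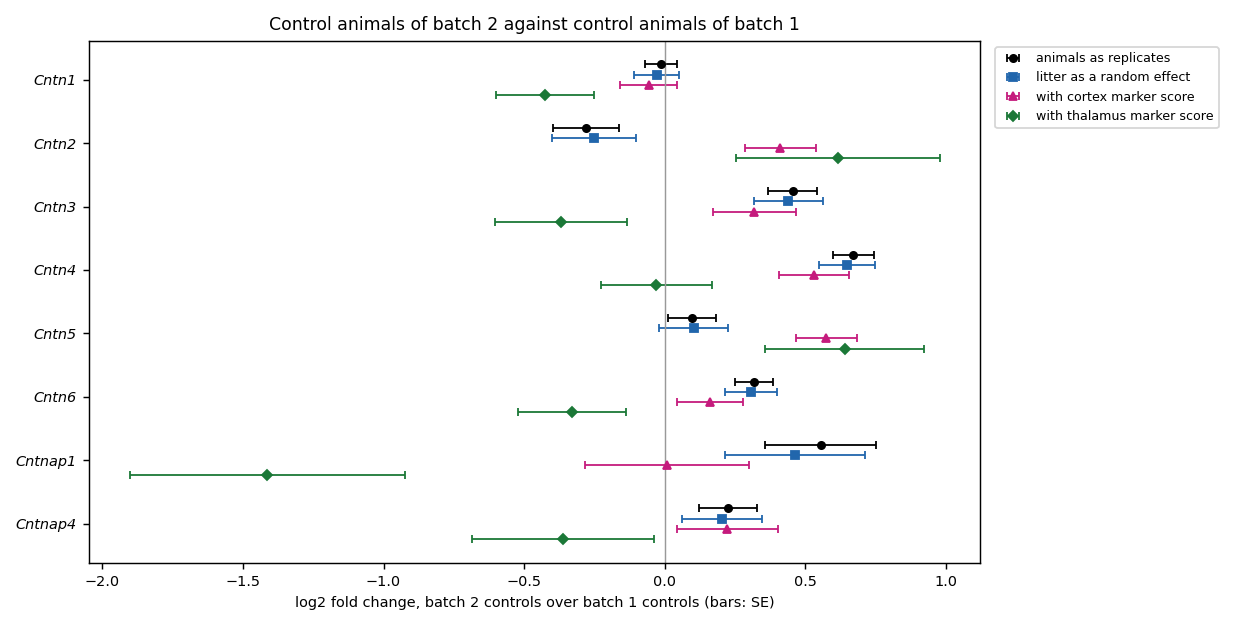
Log2 fold change of each member between the 12 controls of batch 2 and the 12 of batch 1 (horizontal axis, bars are SE) under 4 fits, given by colour and symbol. Cntn4, Cntn3 and Cntn6 lie to the right of 0 with animals as replicates and with litter as a random effect, and the estimates with the thalamus marker score have the widest bars and lie at or left of 0 for these genes.

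Within a batch, the members also differed between slices with more and with less cortex RNA. Slopes were fitted for each marker score across all genes with group and sex in the fit, a comparison chosen after the data had been seen, and are in log2 units per unit of score. In batch 1 the cortex score ran from 6.90 to 7.78 over 28 animals, and 3 of 8 members passed against 27.7% of all genes. Cntn2 rose with the score (slope 1.33, SE 0.17, adjusted p = 1.3e-06), as did Cntn5 (slope 0.74, SE 0.16, adjusted p = 0.00128), while Cntnap1 fell (slope -1.41, SE 0.33, adjusted p = 0.00227). In batch 2, with scores from 6.20 to 7.51 over 43 animals, 7 members passed against 32.1% of all genes. Cntn2 (0.41, adjusted p = 0.0423) and Cntn5 (0.52, adjusted p = 0.000103) rose here too, and Cntnap1 fell (-0.89, adjusted p = 0.00383). Cntn4 (-0.58, adjusted p = 0.000188), Cntn1 (-0.48, adjusted p = 9.4e-05), Cntnap4 (-0.42, adjusted p = 0.0157) and Cntn6 (-0.23, adjusted p = 0.0911) fell with the cortex score in batch 2. In batch 1 none of these passed, with slopes of -0.07 (Cntn4), -0.01 (Cntn1), -0.06 (Cntnap4) and -0.05 (Cntn6). Cntn3 did not pass in either batch, with a slope of -0.04 in batch 2 (95% interval from -0.27 to 0.18) and of -0.24 in batch 1 (from -0.63 to 0.14). Whether slopes differ between the batches was not tested. Without the libraries that held pineal or Hox RNA, 4 members passed in batch 2, Cntn1 (-0.34), Cntn2 (0.93), Cntn4 (-0.41) and Cntn5 (0.71). The share of all genes in that smaller fit is not reported here, so the lower count is not a result about the members.

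**Figure D3:**
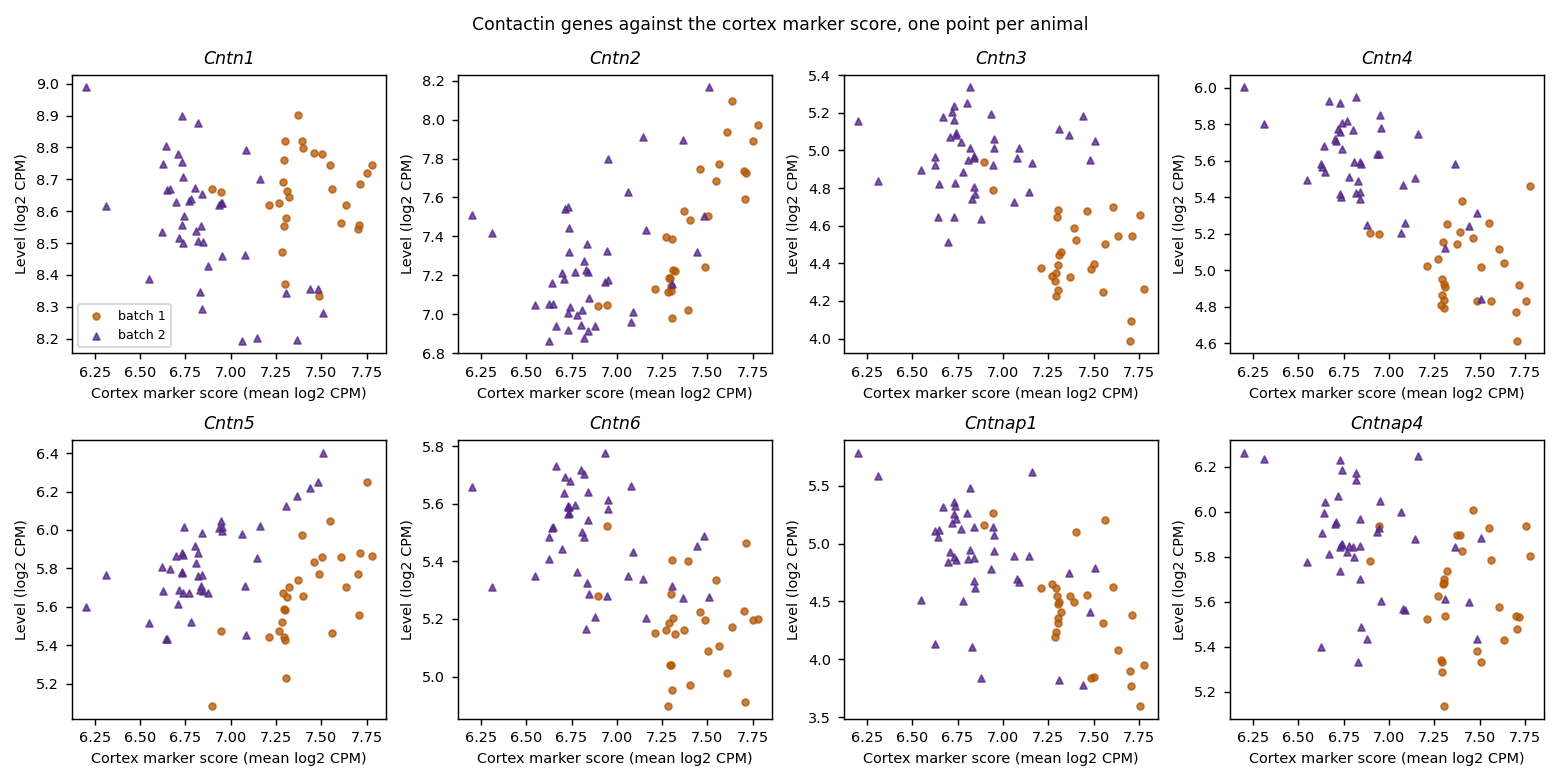
Level of each member (vertical axes, log2 CPM) against the cortex marker score of the same animal (horizontal axes, mean log2 CPM of the cortex markers), with a point for each of the 71 animals; circles are batch 1 and triangles batch 2. Cntn2 and Cntn5 climb with the score within either batch, and the points of Cntn3 form a low cloud for batch 1 and a high one for batch 2 with little slope inside the latter.

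Several members had a slope of the opposite sign on the thalamus score. In batch 1 it ran from 2.45 to 3.88, and 2 of 8 members passed against 18.5% of all genes: Cntn2 fell (slope -0.52, adjusted p = 0.00702) and Cntnap1 rose (0.64, adjusted p = 0.0229). In batch 2 it ran from 2.93 to 5.76, and 6 members passed against 33.6%. Cntn4 (0.25, adjusted p = 7.2e-07), Cntnap1 (0.41, adjusted p = 0.000138), Cntnap4 (0.18, adjusted p = 0.00449), Cntn1 (0.11, adjusted p = 0.0317) and Cntn6 (0.09, adjusted p = 0.0395) rose with this score, and Cntn5 fell (-0.11, adjusted p = 0.0550). Without the libraries that held pineal or Hox RNA, Cntn4 (0.24) and Cntnap1 (0.35) were the 2 members that passed. For this smaller fit, too, the share of all genes is not reported here. For Cntn3 the slope was 0.02 in batch 2 (from -0.05 to 0.10) and 0.17 in batch 1 (from -0.04 to 0.37). The thalamus and cortex scores come from the same slices and are not independent of each other.

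The partner genes were fitted on the scores as well. Of 25 tested, 15 passed with the cortex score of batch 2, against 32.1% of all genes, 1 rising and 14 falling. The other contactin-associated proteins Cntnap5a (-0.96), Cntnap5b (-0.92) and Cntnap5c (-0.88) all fell with the cortex score in that batch, as did Ptprg (-0.75), Ptprz1 (-0.50), Epb41l3 (-0.33), Kcna1 (-0.87) and Kcna2 (-0.54). The gene that rose was Dlg2 (0.50), a synaptic and juxtaparanodal scaffold. In batch 1, 12 of the 25 passed with the cortex score, against 27.7% of all genes, 7 rising and 5 falling. Those included Tnr (1.08), Nrcam (0.44), Nfasc (0.42) and L1cam (0.38), which rose, and Ptprg (-0.58), which fell. With the thalamus score 17 of the 25 passed in batch 2, against 33.6% of all genes, of which 16 rose and only Dlg2 fell (-0.16). In batch 1 the count was 6 of 25, all of them rising, which is close to the share of all genes, 18.5%.

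Cntn2 had the largest estimates of the members in exposed animals. In batch 2 the 8 CRMP1+CRMP2 animals had 23.4, 24.7, 32.7, 33.9, 36.1, 37.2, 44.3 and 57.1 RPKM of Cntn2, and the 12 controls 23.2 to 34.4 RPKM with a median of 26.1. Of the exposed animals 4 lay above every control of the batch and 2 below the control median. The 6 CRMP1+GDA animals had 25.5, 26.2, 29.4, 29.8, 36.3 and 47.9 RPKM. The 9 LDHA/B+CRMP1+STIP1 animals of this batch had 25.3 to 47.4 RPKM with a median of 30.7, and the 8 STIP1+NSE animals 24.0 to 39.4 RPKM with a median of 27.6. In batch 1 the 16 LDHA/B+CRMP1+STIP1 animals had 27.6 to 49.9 RPKM with a median of 37 and the 12 controls 25.1 to 54.3 RPKM with a median of 28.5. The groups overlapped in each of these comparisons.

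Following the study, the animals of a pattern were compared with all 24 controls in a fit with a surrogate variable, and these comparisons share their controls. For CRMP1+CRMP2, 1 of 8 members passed an FDR of 0.1, against 11.4% of the genes tested, and 3 had an unadjusted p under 0.05, against 24.4%. Cntn2 was higher (log2FC 0.41, SE 0.12, 95% interval from 0.17 to 0.65, adjusted p = 0.0397). Cntn5 (log2FC 0.25, unadjusted p = 0.0170, adjusted p = 0.122) and Cntn1 (log2FC -0.16, unadjusted p = 0.0201, adjusted p = 0.132) did not pass. The call of Cntn2 was lost with the counts summed per litter (log2FC 0.44, adjusted p = 0.435), with litter as a random effect (0.39, adjusted p = 0.343, limma), with batch and sex as covariates (0.42, adjusted p = 0.121) and with the cortex score (0.28, adjusted p = 0.213). It was also lost without the libraries that held pineal or Hox RNA (0.35, adjusted p = 0.431). Against the controls of batch 2 alone the log2FC was 0.42 (from 0.16 to 0.68, adjusted p = 0.125). In that comparison 0 of 8 members passed, against 0.785% of genes, and 1 had an unadjusted p under 0.05, against 18.5%.

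The litters of the CRMP1+CRMP2 pattern differed in Cntn2. Their mean levels were 121, 173, 205 and 229 CPM, where the 4 control litters of batch 2 had 120, 135, 137 and 142 CPM and the 3 of batch 1 had 132, 154 and 208 CPM. Thus 3 of 4 exposed litters stood above all control litters of their batch and the lowest was level with the lowest control litter. Leaving out each litter in turn gave log2FCs between 0.32 and 0.57. Without the litter with a mean of 229 CPM the adjusted p was 0.364, and without the litter with 205 CPM it was 0.153. In the latter fit Cntn1 was the member that passed (log2FC -0.21, adjusted p = 0.0761). Without the litter with 121 CPM both Cntn2 (0.57, adjusted p = 0.00214) and Cntn5 (0.32, adjusted p = 0.0515) passed.

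**Figure D4:**
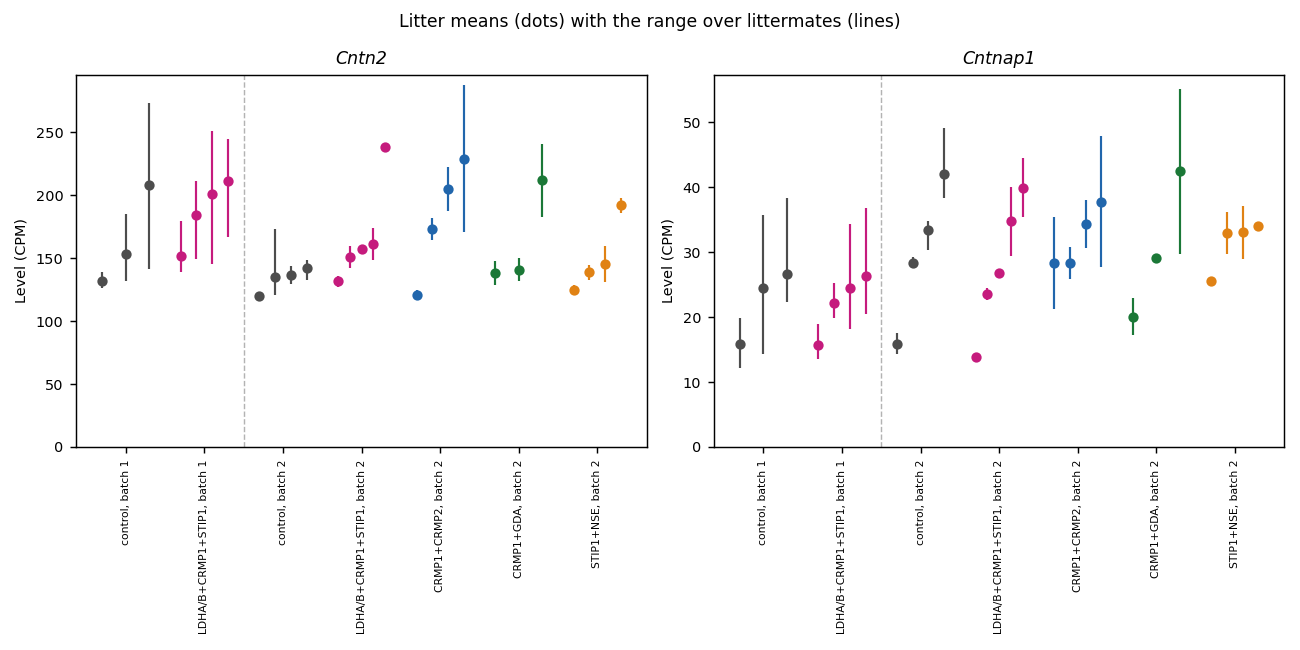
Mean of each litter (dots) and range over its littermates (lines) for Cntn2 and Cntnap1 in CPM (vertical axes, from 0), by group, with batch 1 left of the dashed line. For Cntn2 the batch 2 control litters lie between 120 and 142 CPM, with at least 1 exposed litter above 142 CPM in each pattern, and for Cntnap1 the litter means of a group are spread from 15.9 to 42.1 CPM even among the controls of batch 2.

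For the other patterns no member passed. All 47 exposed animals against the 24 controls gave 0 of 8 members at an FDR of 0.1, against 0.0321% of genes, and 1 at an unadjusted p under 0.05, against 10.3%. That was Cntn2 (log2FC 0.24, SE 0.07, unadjusted p = 0.00129, adjusted p = 0.245; 0.144 with DESeq2). For LDHA/B+CRMP1+STIP1 the count was 0, against 0.0157%, and 1 at the unadjusted p, against 7.17%, again Cntn2 (log2FC 0.17, unadjusted p = 0.0160, adjusted p = 0.551). CRMP1+GDA gave 0, where 0% of genes passed, and 2 at the unadjusted p, against 3.65%, Cntn2 (log2FC 0.37) and Cntn3 (-0.23), each with an adjusted p of 0.999. STIP1+NSE gave 0, against 0.0474%, and 0 at the unadjusted p, against 3.19%, with a log2FC of 0.21 for Cntn2 (95% interval from -0.00320 to 0.43). DESeq2 also called 0 members in these 4 comparisons.

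With controls of the same batch, no member passed for these patterns either. For LDHA/B+CRMP1+STIP1 in batch 2, 0 members passed where 0% of genes did, and 1 had an unadjusted p under 0.05, against 4.84%, which was Cntn1 (log2FC -0.17, unadjusted p = 0.0474). For CRMP1+GDA in batch 2 the counts were 0, against 0%, and 1, against 4.77%, which was Cntn3 (log2FC -0.22, 95% interval from -0.40 to -0.04, unadjusted p = 0.0178). For STIP1+NSE in batch 2 both counts were 0, against 0% and 2.27%. In batch 1, LDHA/B+CRMP1+STIP1 gave 0 members, against 0.0161%, and 1 at the unadjusted p, against 5.45%, which was Cntn3 (log2FC -0.16, from -0.32 to -0.01, unadjusted p = 0.0372). Cntn2 had a log2FC of 0.24 in batch 2 (from -0.01 to 0.49) and of 0.18 in batch 1 (from -0.07 to 0.43) for this pattern, 0.27 for CRMP1+GDA (from -0.01 to 0.55) and 0.15 for STIP1+NSE (from -0.10 to 0.41). Its interval thus held 0 in every comparison within a batch except that of CRMP1+CRMP2.

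**Figure D5:**
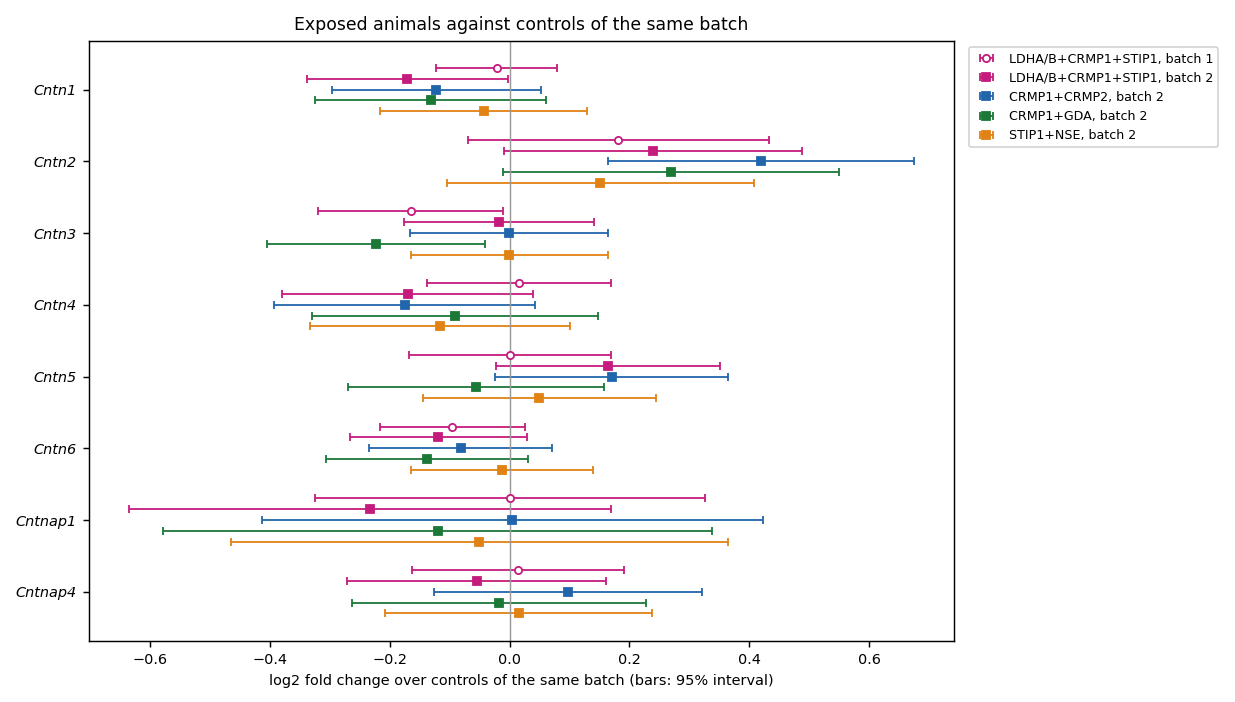
Log2 fold change of each member in exposed animals over the controls of the same batch (horizontal axis, bars are 95% intervals), with colours for the patterns and the open symbol for batch 1. The estimates of Cntn2 lie right of 0 in all 5 comparisons, between 0.15 and 0.42, and the intervals of Cntnap1 are the widest; the comparisons of batch 2 share their 12 controls.

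Differences between the patterns themselves were tested within batch 2. Here 0 of 8 members passed, where 0% of genes did, and 0 had an unadjusted p under 0.05, against 7.03% of genes. The smallest unadjusted p of a member was 0.0925 for Cntn3, and Cntn2 had 0.292. Thus the larger estimate of Cntn2 in CRMP1+CRMP2 was not shown to differ from that of the other patterns. The effect of LDHA/B+CRMP1+STIP1 was not shown to differ between the batches for any member (0 of 8 passed, against 0.11%, and 0 had an unadjusted p under 0.05, against 3.05%), with a difference of 0.05 for Cntn2 (from -0.28 to 0.38). For males against females no member passed. The counts were 0 against 0.0641% and 0 against 4.66%, and the estimates lay between -0.10 for Cntn5 (from -0.20 to 0.01) and 0.02 for Cntnap1 (from -0.20 to 0.24).

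Among the 25 partner genes, 3 were lower in CRMP1+CRMP2 animals than in all controls, App (log2FC -0.20, adjusted p = 0.0273), Dlg4 (-0.16, adjusted p = 0.0162) and Aplp1 (-0.13, adjusted p = 0.0507). This count stands beside the 11.4% of all genes that passed in either direction and is near that share. App and Aplp1 belong to the amyloid precursor family that contains ligands of contactins, and Dlg4 is a postsynaptic scaffold. In the other exposure comparisons 0 partner genes passed, and within batch 2 the count for CRMP1+CRMP2 was 0 as well, against 0.785% of all genes, with 7 of 25 at an unadjusted p under 0.05, against 18.5%. Between the controls of the batches 14 of 25 passed, against 41.5% of all genes, with 8 higher in batch 2, against 21.3%, and 6 lower, against 20.2%. Among the higher ones were Ptprg (0.29) and App (0.35), partners of Cntn4, together with Cntnap5c, Ncam2, Kcnab2, Aplp1 and Aplp2. Lower were Tnr (-0.56), Dlg2 (-0.42), Tnc (-0.37), Kcna1 (-0.31), Nrcam (-0.17) and Ptprz1 (-0.17).

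The share of variance between batches set the chromosome 4 neighbours apart from the other members. Of the sum of squares of log2 CPM over 71 animals, 62.7% lay between the batches for Cntn3, 59.0% for Cntn4 and 47.4% for Cntn6, where the median gene had 10.5%. Cntnap1 had 21.4%, Cntnap4 17.3%, Cntn5 11%, Cntn2 7.50% and Cntn1 6.96%. The share between groups within a batch, with controls as a group beside the autoantibody patterns, was largest for Cntn2, at 14.3%. For the others it was between 2.02% (Cntnap4) and 8.99% (Cntn1), where the median gene had 6.43%. Litters within a group took 52.5% for Cntnap1 and 49.1% for Cntn2, against 35.7% for the median gene. Differences between littermates took the largest of the 4 shares in Cntn5 (51.4%), Cntn1 (49%) and Cntnap4 (43.4%), against 38.9% for the median gene. These shares are descriptions and no test was made of them.

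Cntnap1 was the most variable member. Its level had a coefficient of variation of 34.1% over all animals, against 11.9% for Cntn1, and ran from 2.26 RPKM to 10.3 RPKM. Among the 12 controls of batch 2 it ran from 2.67 to 9.17 RPKM with a median of 6.35, and among those of batch 1 from 2.26 to 7.15 RPKM with a median of 4.18. The means of the 4 control litters of batch 2 reached from 15.9 to 42.1 CPM. No exposure comparison of Cntnap1 passed, and its 95% interval within batch 2 still ran from -0.41 to 0.42 for CRMP1+CRMP2, so that changes within these bounds are not excluded.

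Some members varied together between animals. Correlations were taken over 71 animals after the means of each group of pattern and batch and of each sex had been removed, and animals of a litter share a dam and libraries share their slice composition, so they are given as descriptions. Cntnap1 and Cntnap4 had an r of 0.62, Cntn1 and Cntn4 0.59, Cntn4 and Cntnap1 0.57 and Cntn1 and Cntnap4 0.53. Cntn2 and Cntn5 had an r of 0.49. Between Cntn5 and Cntnap1 r was -0.30. The neighbours Cntn3 and Cntn6 had an r of 0.44, Cntn6 and Cntn4 0.46 and Cntn3 and Cntn4 0.40.

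The genes most like each member were sought among the 12477 genes that passed the filter on low counts. For Cntnap1 they were Snhg11, a neuronal noncoding RNA (r = 0.90), Caskin1 (0.86) and Plec (0.86). For Cntn2 they were Fat4, an atypical cadherin (0.87), Tcf4, a transcription factor of neural progenitors and neurons (0.86), and Map4k4 (0.86). Cntn1 was most like Snap91, a clathrin assembly protein of synapses (0.84), Nrxn2, a neurexin (0.82), and Clstn3, a calsyntenin (0.81). Cntnap4 was most like Rims2, a protein of the presynaptic active zone (0.80), the potassium channel Kcnd3 (0.79) and Synj1, a phosphatase of synaptic vesicle recycling (0.78). For Cntn5 they were Nfix, a transcription factor (0.75), St3gal1 (0.74) and Acvr1 (0.72), and for Cntn4 Arhgap26, Sorcs2 and Pgm2l1 (0.72 each). Cntn3 and Cntn6 had no gene this close. The nearest to Cntn3 were Hecw2 (0.60), Cacnb4 (0.56) and Zfp592 (0.56), and the nearest to Cntn6 were Cdk14 (0.61), Nt5dc3 (0.59) and Rab6b (0.58). Within batch 1 the r of Cntn3 was 0.72 with Hecw2, 0.78 with Cacnb4 and 0.69 with Zfp592. Within batch 2 these values were 0.52, 0.40 and 0.46. With Spearman's rho 9 of these 24 genes stayed among the 3 nearest, so that the names are less firm than the size of r.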

How the data were processed

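RNA sequencing of 71 slices was analysed. Per the labels and the methods of the study, the authors made poly-A libraries, aligned paired reads with STAR 2.5.4b to rn7 and counted them per gene with featureCounts. The deposited table holds these counts, not normalized, and the exon length of each gene, which the authors' counting tool wrote in bases. Whether reads mapping to several places were counted is not given in the sources used here. Of low counts from 1 to 9, 74.5% were even, and halving all counts was tried. The members had no counts in this range, and of all their counts 49.3% were even. No library pair of a group matched within sampling noise (smallest chi-square per gene 5.52). The library totals had a median of 28439195 counts.

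The groups, litters and sexes come from the labels, and the batch from the series of the sample title. Counts were tested in R 4.3.3 with edgeR 4.0.16 (TMM, robust quasi-likelihood fit), with Benjamini-Hochberg adjustment over all genes tested and an FDR of 0.1. Pooled fits used the first surrogate variable (sva 3.50.0), as in the study, over genes with 1 CPM in at least 8 samples (2 samples, over 1 CPM, for single patterns), and fits within a batch used sex. DESeq2 1.42.0 and limma 3.58.1 (voom, random litter effect) were alternatives, with other scaling, filters, covariates, litter sums, marker scores and left-out litters. RPKM were computed from the counts, the TMM-scaled library totals and the exon length. Scripts were tested on simulated data. The named genes are the members, 10 partners, the 3 genes most like each member, and any partner-list gene that passed. Not all of the passing partners are reported here. The members and all lists were chosen with earlier results of these data known. Marker score slopes and the removal of 12 libraries with pineal or Hox RNA were added after the data had been seen. Exon coordinates are of rn7, and promoter sequences are of RefSeq, assembly GRCr8. Sequences for Cntnap1 and Cntnap4 promoters were not used here.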

Additional observations from a re-analysis of the deposited data

Results flagged for a closer look

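A single animal stood apart in 2 of 32 groups of a member that were examined for this, where chance gives about 1 in 20. In the 9 LDHA/B+CRMP1+STIP1 animals of batch 2 the highest value of Cntn2 was 239 CPM, the next was 174 CPM and the lowest 127 CPM, and this animal was the only one of its litter. In the 6 CRMP1+GDA animals the highest value of Cntnap1 was 55.2 CPM, the next was 29.8 CPM and the lowest 17.2 CPM. Why these animals stood apart was not tested.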

How the results depend on the processing

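Of the 8 members tested, 0 passed an FDR of 0.1 under any alternative in the exposure comparisons other than pooled CRMP1+CRMP2, in the differences among patterns, in the exposure by batch term and between the sexes. In pooled CRMP1+CRMP2 the count was 1. It was 2 with PC1 and PC2 as covariates and with the thalamus score, and 0 with batch and sex, with counts summed per litter, with litter as a random effect, with the cortex score and without the libraries that held pineal or Hox RNA. Leaving out each litter in turn gave counts from 0 to 2 for CRMP1+CRMP2, and from 0 to 0 for the other patterns. Between the controls of the batches the count of 6 was 3 with litter sums, 3 with litter as a random effect, 3 with the cortex score and 0 with the thalamus score. The 3 of either litter fit were Cntn3, Cntn4 and Cntn6. Those with the cortex score were Cntn4, Cntn5, which was not among the 6, and Cntn2 with its sign reversed. The thalamus score turned Cntn2 to 0.62, Cntn3 to -0.37, Cntn4 to -0.03, Cntn6 to -0.33, Cntnap1 to -1.41 and Cntnap4 to -0.36, and the cortex score turned Cntn2 to 0.41. Without the libraries that held pineal or Hox RNA, the slopes on the thalamus score in batch 2 gave 2 in place of 6 and those on the cortex score 4 in place of 7. Of the 24 genes most like the members 9 stayed with Spearman's rho. For the litter sums fewer units are compared by construction, and for the others the cause was not tested. The share of all genes that passed under each alternative is not reported here, so a changed count is not a result about the members.

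A replicate block, with the number in the title in place of sex for LDHA/B+CRMP1+STIP1 in batch 1, called 0 members, as without it, and gave Cntn2 a log2FC of 0.19 (unadjusted p = 0.152) and Cntn3 -0.16 (unadjusted p = 0.0421). The number counts pups within a litter, and exposed and control animals of the same number had a mean correlation of -0.04 between their deviations from the means of group and sex, against -0.03 for other numbers of the same sex, so that the numbers were not taken to pair the animals. Over all alternatives 1000 values of single members were computed, of which 98 changed sign. Among 205 values of members with an unadjusted p under 0.05 in the original comparison, 7 changed sign, 145 stayed under 0.05 and 53 kept their sign but not this threshold. The lowest count of a member in a library was 353 (Cntnap1), and counting error was not set against the spread between animals.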
